A study of Drosophila melanogaster with 12 samples.

Results

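Antisense RNAs are transcripts read from the strand opposite to another gene, and most of those described here do not encode a protein. The 35 described were chosen as the genes with a FlyBase symbol that begins with asRNA, whose array target was a noncoding RefSeq record or a cDNA clone and whose brightest probe rose clear of background (the scanner software's well-above-background mark) on every array of at least 1 group of 3. They are 35 of the 63 antisense genes with a matched probe, among 18757 genes or target sequences tested and 25842 on the array. The reference gene table lists 503 antisense genes, so only a small share of them was matched to a probe.

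The samples were total RNA of Drosophila melanogaster larvae, taken 48 h before wandering and labelled female, on 12 one-colour Agilent arrays. The 4 groups of 3 arrays were w1118 control larvae on ethanol food, control larvae on food with 200 µM rapamycin, REPTOR knockout larvae on ethanol food and REPTOR knockout larvae on rapamycin food, each fed for 6 h. The labels give the knockout by name, without its allele. Per the labels the control food held ethanol at the concentration of the rapamycin food. The labels call the arrays replicates, without saying how many larvae or which cultures each came from, so p-values measure the spread between these samples. A level below is the log2 processed signal minus the array's own 75th percentile, and the levels of different probes are not compared as amounts of RNA.

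Rapamycin inhibits the kinase complex TORC1, which drives growth when nutrients are plentiful. REPTOR is a transcription factor that TORC1 holds inactive, and it activates a large share of the genes that respond when TORC1 is blocked. An antisense RNA can overlap, and in known cases in other genes can silence or mask, the gene on the other strand, and some are only by-products of transcription. For the RNAs named here only the overlap is given, and all but Eig63F-2 are named after their gene number.

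Before the results, 3 arrays stand apart from the rest. The noncoding RNA roX2, which with roX1 guides the male dosage compensation complex to the X chromosome and is a male-specific RNA, was high on 1 control and on 2 knockout arrays, all fed rapamycin. Its level was -1.29 on the control array numbered 3, and 0.01, -1.10 and -5.83 on knockout arrays 1, 2 and 3. The remaining 8 read between -9.06 and -6.90, none of them above the background mark. roX1 read 3.35, 3.88 and 2.91 on the 3 raised arrays and -1.57 to 0.43 elsewhere. These readings go against the female label of those 3 arrays. The same arrays had 82.7%, 81.8% and 79.3% of their spots well above background, against 72.5% to 77.0% elsewhere. Control ethanol arrays 1 to 3 and control rapamycin array 1 shared slide 1, control rapamycin arrays 2 and 3 and knockout ethanol arrays 1 and 2 shared slide 2, and knockout ethanol array 3 and the 3 knockout rapamycin arrays shared slide 3. No probe was matched to REPTOR, so the genotype labels were not checked through it. Beyond roX1 and roX2, the lists of cell type markers had 1 gene with a named probe, the testis gene f-cup (1 of 21 listed). The lists for ovary, fat body, salivary gland, midgut, muscle, nervous system and haemocytes had 0. Of 32162 probes 31665 matched no symbol, so a 0 does not mean that the array lacks those genes. f-cup read -0.29 on each control ethanol array and 1.23, 1.29 and 1.35 on the control rapamycin arrays, with array 3 close to the others. In knockout larvae it lay between -0.40 and -0.38 on ethanol and read -0.01, -0.18 and -0.24 on rapamycin.

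The antisense RNAs came from all major chromosome arms. Of the 35, 9 lay on 2L, 6 on 2R, 9 on 3L, 4 on 3R, 2 on X and 5 on chromosome 4, the small, heterochromatin-rich chromosome. All 5 antisense genes of chromosome 4 that had a matched probe were measured, out of 10 in the reference table. By that table, which follows the Release 6 assembly, all 35 overlap a protein-coding gene and 16 lie wholly inside the span of one. None of the overlapping genes had a probe matched by name, so sense and antisense levels were not compared. The files do not state which strand a probe reads, so a part of the signal from the overlapping gene was not tested.

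They were dim as a class. Their mean levels over the 12 arrays ran from -7.42 to -1.42 with a median of -5.33, and their median per array lay between -5.43 and -4.59 where that of everything tested lay between -1.64 and -1.41. The lowest signal called well above background stood between -7.48 and -6.79 on the arrays, and several members lay near or under it. The standard error of a group difference was larger than elsewhere, with a median of 0.24 against 0.12 over everything tested. All 12 arrays were well above background for 24 of the 35, and 5 passed the rule in exactly 1 group.

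The brightest was CR44030, which overlaps fuss, a gene of the Ski/Sno family of transcription co-regulators. It read -1.67, -1.84 and -1.71 on control ethanol arrays, -1.09, -0.99 and -1.06 on control rapamycin arrays, -2.24, -2.05 and -1.92 on knockout ethanol arrays, and -0.12, -0.91 and -1.44 on knockout rapamycin arrays 1, 2 and 3. In both genotypes every rapamycin array lay above every ethanol array. CR44114, inside sau, the Golgi phosphoinositide-binding protein, moved little, at -2.56, -2.29 and -2.33, then -2.24, -2.32 and -2.15, then -2.47, -2.54 and -2.66, then -2.68, -2.53 and -2.56 in the same order of groups. CR42860, inside sls, which encodes the giant titin-like muscle proteins, read -2.95, -3.14 and -3.30, then -3.07, -3.19 and -3.46, then -2.97, -3.46 and -3.05, then -2.72, -2.76 and -2.93, and passed the test in none of the comparisons.

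At the dim end stood CR43425, CR43426 and CR44228. CR43425, inside the span of the synaptic vesicle priming gene unc-13, read -7.57, -8.32 and -7.59, then -7.64, -7.43 and -8.29, then -7.50, -7.27 and -7.26, then -6.37, -6.80 and -6.98. It was well above background on the 3 knockout rapamycin arrays and on none of the other 9. CR43426, which overlaps CG32462, read -6.18, -7.73 and -7.44, then -7.56, -6.92 and -7.35, then -7.63, -7.53 and -7.64, then -6.60, -6.92 and -5.94, and its 4 arrays above background were 1 control ethanol and the 3 knockout rapamycin arrays. CR44228, which overlaps the histone chaperone gene Nasp, read -7.13, -6.31 and -6.55, then -7.47, -6.60 and -6.58, then -6.87, -6.91 and -6.67, then -6.96, -7.54 and -7.78, with all groups overlapping except the 2 knockout groups.

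**Figure D1:**
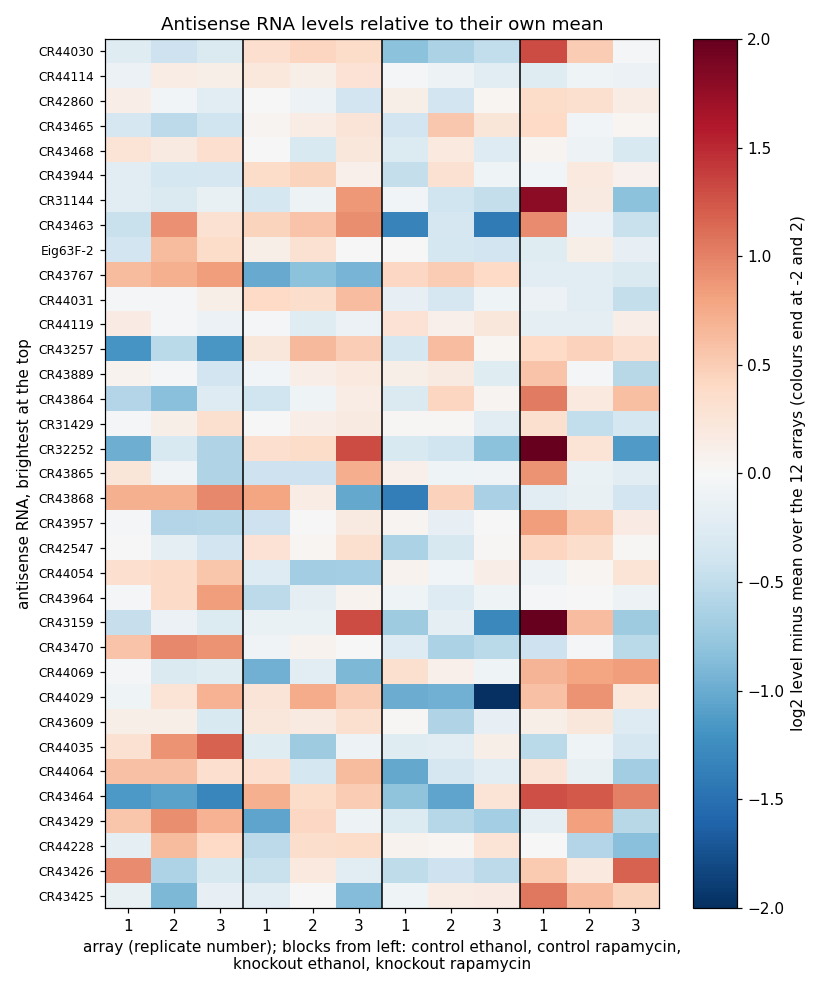
Each row is 1 of the 35 antisense RNAs, ordered by mean level, and each column is 1 array; the colour is the log2 level minus that RNA's own mean over the 12 arrays, and black lines part the 4 groups. CR43767 is high on all ethanol arrays and low on all rapamycin arrays, while CR31144, CR32252 and CR43159 are high on control rapamycin array 3 and knockout rapamycin array 1.

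Rapamycin food against ethanol food in control larvae asks which transcripts respond to the drug when REPTOR is present. Among the antisense RNAs 10 of 35 passed the test (limma, adjusted p below 0.05 over everything tested), 5 higher and 5 lower on rapamycin. Over all 18757 tested, 43.1% passed, 21.3% higher and 21.8% lower. In this setting the share of antisense RNAs, 28.6%, lay below that of the array. Their median difference was 0.11, against 0.05 over everything tested. With arrays centred on their median in place of the 75th percentile, 8 of 35 passed, 2 higher and 6 lower. Over everything tested 20.5% passed there, so the antisense share did not lie below it. The median over everything moved to -0.18, and the higher share of all calls moved from 49.3% to 21.9%.

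The largest fall was that of CR43767, which overlaps Tango14. It read -3.09, -3.01 and -2.89 on the control ethanol arrays and -4.73, -4.54 and -4.66 on the control rapamycin arrays. The 2 groups did not overlap, and each had an SD of 0.10 (n = 3). It fell by 1.65 ± 0.07 (SE) on the log2 scale, 3.14-fold, with an adjusted p of 5.2e-07. It passed in all 25 alternative settings tried, with a difference between -1.88 and -1.11, 1 of them within slide 1, where it stood at -1.74. Slide 1 holds 1 control rapamycin array against the 3 control ethanol arrays, and 14.8% of everything tested passed there. With slide as a block this comparison rests on the same 4 arrays.

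CR43464, inside CG33543, went the other way. It read -7.79, -7.72 and -7.95 on the control ethanol arrays, none of them well above background, and -5.94, -6.28 and -6.13 on the control rapamycin arrays, all well above it. The fitted difference was 1.71 ± 0.28 (adjusted p = 0.000975). Since the ethanol group has only a bound, the RNA was at least 1.86-fold higher on rapamycin, where that bound sets the ethanol group at the lowest signal called well above background on each array. This call too held in all 24 alternatives, with a difference between 0.34 and 1.89. However, CR43464 met the rule only through the rapamycin groups, where it is high, so its call lends the count no support.

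CR43257, which overlaps ETH, the gene of ecdysis triggering hormone, and Orc4, a subunit of the origin recognition complex, read -5.93, -5.29 and -5.91 on ethanol and -4.52, -4.11 and -4.26 on rapamycin. The groups lay apart, and it rose by 1.41 ± 0.24, 2.66-fold (adjusted p = 0.00119). It stood at 1.19 within slide 1 and with slide as a block, and its adjusted p was 0.0818 and 0.0501 there, within a range of 0.000326 to 0.0818 over its 25 alternatives.

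The other 3 that rose did so by less. CR43944, inside fbl, which encodes a pantothenate kinase of coenzyme A synthesis, read -3.66, -3.81 and -3.78 on ethanol and -3.09, -3.01 and -3.35 on rapamycin, a rise of 0.60 ± 0.17 (adjusted p = 0.0193). CR43465, inside the mitochondrial carrier gene Ucp4B, read -3.45, -3.64 and -3.50 against -3.05, -2.96 and -2.85, a rise of 0.58 ± 0.21 (adjusted p = 0.0458). CR44031, on chromosome 4 and overlapping Mpv17, a mitochondrial inner membrane protein gene, read -3.77, -3.77 and -3.62 against -3.34, -3.38 and -3.12, a rise of 0.44 ± 0.11 (adjusted p = 0.0101). In each of these 3 all rapamycin arrays lay above all ethanol arrays, and with median centring they stood at 0.37, 0.35 and 0.22 and did not pass. Within slide 1 they stood at 0.65, 0.48 and 0.39, and with slide as a block none of them passed. CR43944 was also lost without control ethanol array 2 or 3 or control rapamycin array 1 or 2 (adjusted p 0.0545 to 0.0683), and CR43465 without any of the 6 control arrays, knockout ethanol array 3 or knockout rapamycin array 2 or 3 (0.0545 to 0.126).

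Among those lower on rapamycin, CR44035, which overlaps CG8534, read -6.23, -5.64 and -5.36 on ethanol and -6.79, -7.26 and -6.65 on rapamycin, where 1 of 3 arrays was well above background. It fell by 1.16 ± 0.24 (adjusted p = 0.00316). CR44054, on the X chromosome and overlapping CDK2AP1, ssp7 and CG15199, read -5.14, -5.10 and -4.92 against -5.73, -6.17 and -6.15, and fell by 0.96 ± 0.14 (adjusted p = 0.000359). CR43470, which overlaps CG14830, read -5.51, -5.11 and -5.17 against -6.14, -6.00 and -6.08, and fell by 0.81 ± 0.16 (adjusted p = 0.00231). These 3 showed no overlap between foods, and each lost its call under normexp background correction (-0.28, -0.34 and -0.17) and, with its 1 rapamycin array, within slide 1 (-1.05, -0.68 and -0.88). CR44035 was lost with slide as a block as well, at -1.05.

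CR43964, which overlaps CG15093, passed with overlapping groups. It read -5.71, -5.31 and -4.86 on ethanol and -6.21, -5.88 and -5.62 on rapamycin, where array 3 lay above ethanol array 1, and it fell by 0.61 ± 0.20 (adjusted p = 0.0345). The call was lost without control ethanol array 2 or 3 or control rapamycin array 1 or 2 (adjusted p 0.0735 to 0.12). It was also lost within slide 1, at -0.92, in the deposited value table, with no filter and with a variance trend. Under normexp it stood at -0.12 (adjusted p = 0.395, within 0.00634 to 0.395 over its alternatives). Arrays of the 2 foods did not overlap for 14 of the 35 antisense RNAs, against 57.0% of everything tested. Of the 14, CR43464 and CR43429 met the rule only through groups where they are high, and lend the count no support. Without control rapamycin array 3 and the other arrays with raised roX2, 9 of these 10 calls were kept, CR43465 stood at 0.53 and did not pass, and CR44030 (0.70 ± 0.11) and CR32252 (0.98 ± 0.22) passed in addition.

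**Figure D2:**
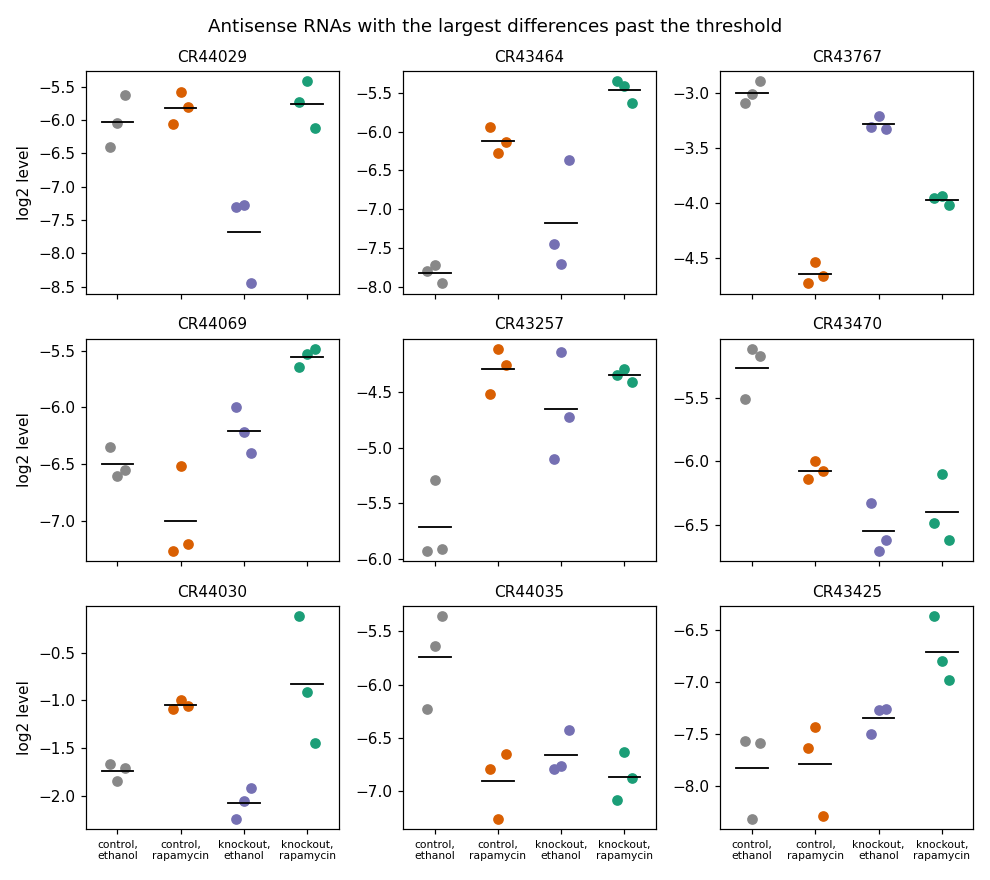
Each panel is 1 antisense RNA among the 9 with the largest differences past the threshold; points are arrays, lines are group means, and the vertical axis is the log2 level relative to the array's 75th percentile. CR43767 falls on rapamycin by 1.65 in control and by 0.69 in knockout larvae, and CR44029 is low on the 3 knockout ethanol arrays, between -8.45 and -7.27.

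The same food comparison in REPTOR knockout larvae asks which responses remain without the factor. Here 5 of 35 antisense RNAs passed, 4 higher and 1 lower, where 15.3% of everything tested passed, 6.35% higher and 8.92% lower. The share of antisense RNAs was 14.3%, near that of the array. Their median difference was 0.28 against 0.01 over everything tested, and 25 of 35 differences were positive. Without the arrays with raised roX2, where knockout rapamycin array 3 is alone in its group, the antisense median was 0.01. With roX2 as a covariate it was 0.12, against -0.01 over everything tested. With median centring 7.65% of everything tested passed. It moved the median over everything to -0.33, the antisense median to -0.06 and the split to 3 higher and 2 lower. The higher share of all calls moved from 41.6% to 6.55%. That share was 31.6% after quantile normalization, with 2 antisense RNAs higher and 3 lower, and 30.6% in the deposited value table, with 1 each way.

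CR44029, which like CR43425 lies within unc-13 on chromosome 4, read -7.31, -7.27 and -8.45 on the knockout ethanol arrays and -5.73, -5.41 and -6.11 on the knockout rapamycin arrays. None of the ethanol arrays was well above background and all rapamycin arrays were, so it was at least 2.67-fold higher on rapamycin, with a fitted difference of 1.93 ± 0.33 (adjusted p = 0.00651). CR43464 was again higher, at -7.45, -7.70 and -6.37 on ethanol, 1 of them well above background, and -5.35, -5.41 and -5.63 on rapamycin. Its fitted difference was 1.71 ± 0.28 (adjusted p = 0.00534). As in control larvae, this call lends the count no support, since the RNA met the rule only through the rapamycin groups. Since most ethanol arrays of both genotypes lay under the background mark, its sizes in the genotypes are not set against each other. CR44030 rose by 1.24 ± 0.26 (adjusted p = 0.0138), with its 3 rapamycin arrays spread from -1.44 to -0.12 in the order of their roX2 levels. In control larvae the rapamycin array with raised roX2, at -1.06, lay between the others, at -1.09 and -0.99.

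CR44069, which overlaps Mmp2, a matrix metalloproteinase gene, read -6.00, -6.22 and -6.40 on ethanol and -5.64, -5.53 and -5.48 on rapamycin. It rose by 0.66 ± 0.19 (adjusted p = 0.0424), and passed in 5 of 24 alternatives, with adjusted p from 0.00955 to 0.718. Leaving out control ethanol array 2 or 3, or any of the 6 knockout arrays, gave adjusted p between 0.058 and 0.121. CR43767 was lower again, at -3.31, -3.21 and -3.33 on ethanol and -3.95, -3.94 and -4.02 on rapamycin, and fell by 0.69 ± 0.07, 1.61-fold (adjusted p = 0.000766).

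Arrays of the 2 foods did not overlap for 11 of the 35, against 34.4% of everything tested. Of the 11, CR43425, CR43426 and CR43464 met the rule only through rapamycin groups, where they are high. CR44228 met it only through knockout ethanol, the higher group here, so these RNAs lend the count no support. Leaving out the raised roX2 arrays leaves knockout rapamycin array 3 alone in its group, assumed to vary like the others, and then 0 antisense RNAs passed with limma (9 at an unadjusted p below 0.05) and 1.01% of everything tested. CR44029, CR43464, CR44069, CR44030 and CR43767 stood at 1.56, 1.54, 0.73, 0.63 and -0.74 there, in that order. With roX2 as a covariate they stood at 1.70, 1.71, 0.85, 0.84 and -0.71, and CR43767 passed, as did 2.06% of everything tested. Within slide 3, where knockout ethanol array 3 is alone, they stood at 2.70, 0.90, 0.85, 1.10 and -0.64 and none passed (5 of the 35 antisense RNAs at an unadjusted p below 0.05), with 0 passing over everything tested and 2528 at an unadjusted p below 0.05. CR44030 was lost with slide as a block (1.10) and without knockout ethanol array 1, at an adjusted p of 0.0559 within a range of 0.00355 to 0.483 over its alternatives.

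**Figure D3:**
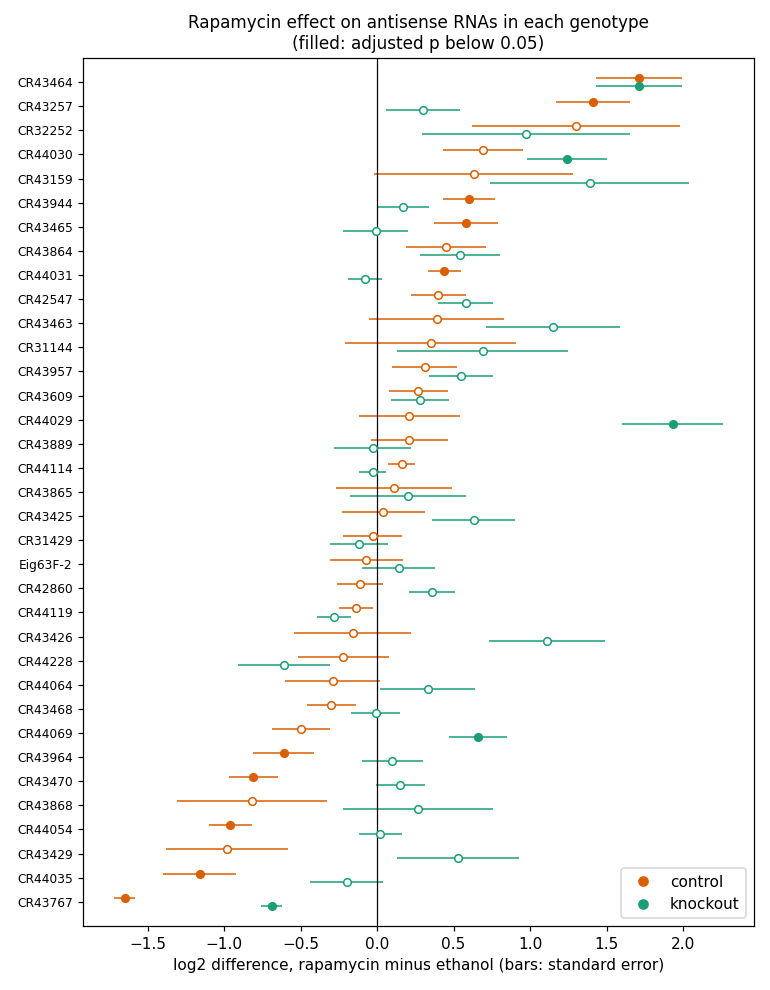
Points are log2 differences, rapamycin minus ethanol, for each of the 35 antisense RNAs in control (orange) and knockout (green) larvae, with standard errors as bars; filled points have an adjusted p below 0.05. CR43464 is filled on the higher side in both genotypes, with its control ethanol arrays under the background mark, CR44029 stands at 1.93 in knockout and 0.21 in control larvae, and CR43767 is the only RNA filled on the lower side in both.

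The difference between these effects asks which responses depend on REPTOR, and it uses the same 12 arrays as both food comparisons. In 5 of 35 antisense RNAs the rapamycin effect differed between genotypes, all 5 in the positive direction, meaning more positive in knockout larvae. Over everything tested 14.6% passed, 6.63% positive and 7.99% negative. The shared direction of the calls depended on the setting. Quantile normalization gave 1 call, which was negative and not among these 5. Requiring all 12 arrays above background gave 2 positive and 2 negative calls among 24 antisense RNAs. Normexp, a replicate block and roX2 as a covariate gave 2, 4 and 3 positive calls, each with 1 negative call. The median over the antisense RNAs was 0.29, against 0.01 over everything tested. Without the arrays with raised roX2 it was 0.07 against -0.01, and with roX2 as a covariate 0.01 against -0.03.

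CR43767 had a difference of 0.96 ± 0.10 (adjusted p = 0.000398), from -1.65 in control larvae and -0.69 in knockout larvae. CR44054 had 0.98 ± 0.19 (adjusted p = 0.0088), with a knockout reading of -5.40, -5.53 and -5.35 on ethanol and -5.57, -5.44 and -5.20 on rapamycin, where the foods overlap. CR43470 had 0.96 ± 0.22 (adjusted p = 0.0188), its knockout arrays standing at -6.33, -6.71 and -6.62 on ethanol and -6.49, -6.10 and -6.62 on rapamycin, and 2 of the 3 ethanol arrays were well above background. For these 3 the control effect was downward.

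CR44069 had the difference 1.15 ± 0.26 (adjusted p = 0.0182). Its control arrays read -6.35, -6.61 and -6.55 on ethanol and -7.27, -6.52 and -7.21 on rapamycin, where 1 of 3 was well above background, and the control effect of -0.50 did not pass. CR44029 had 1.72 ± 0.47 (adjusted p = 0.0375) with control levels of -6.40, -6.04 and -5.62 on ethanol and -6.06, -5.57 and -5.80 on rapamycin, which overlap. Its knockout ethanol group has only a bound, so the size of this difference is not fixed by the data.

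These 5 kept a positive sign in every alternative, but none passed with median centring, with quantile normalization or in the deposited value table. With median centring CR43767, CR44054, CR43470, CR44069 and CR44029 stood at 0.85, 0.87, 0.84, 1.04 and 1.60. In that setting 1.75% of everything tested passed, with its median at -0.11 and the positive share of all calls at 23.7% in place of 45.3%. Under normexp CR43470, CR44069 and CR44054 stood at 0.15, 0.26 and 0.35 and did not pass. Without the raised roX2 arrays CR43767 (0.91) and CR44054 (1.12) passed, and CR43470 (0.74), CR44069 (1.12) and CR44029 (1.36) did not. With slide as a block CR43767 (1.10) and CR44029 (2.75) passed, and CR44054 (0.62), CR43470 (1.09) and CR44069 (1.62) did not. That setting rests on slides 1 and 3, with control rapamycin array 1 and knockout ethanol array 3 each alone in its group there. For CR44029 this knockout ethanol array read -8.45, not well above background and the lowest of the 12, so the 2.75 gives no added support. CR43470 was lost without control ethanol array 2 (adjusted p = 0.05, within 0.011 to 0.343 over its alternatives), and CR44029 without control ethanol array 2 or 3, any control rapamycin array or knockout rapamycin array 1 or 2 (0.0566 to 0.0878).

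Knockout against control on ethanol food asks what the loss of REPTOR changes in fed larvae. In this comparison 4 of 35 antisense RNAs passed, 1 higher and 3 lower in the knockout, against 6.33% of everything tested, 2.91% higher and 3.42% lower. CR43470 was lower by a fall of 1.29 ± 0.16 on the log2 scale, 2.45-fold (adjusted p = 0.00457), its knockout arrays between -6.71 and -6.33 and its control arrays between -5.51 and -5.11. CR44029 was at least 2.22-fold lower, with a fitted difference of -1.66 ± 0.33 (adjusted p = 0.027). CR43257 was higher, at -5.10, -4.14 and -4.72 in the knockout, with a difference of 1.06 ± 0.24, 2.08-fold (adjusted p = 0.0381). CR43767 was lower by a small margin, -0.29 ± 0.07 (adjusted p = 0.0488).

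In all 4 the genotypes did not overlap, which was so for 14 of 35 antisense RNAs and 30.4% of everything tested. Of the 14, CR43429 and CR44064 met the rule only through control ethanol, where they are high, and lend the count no support. The same holds for CR43425 and CR43464, which on ethanol lay under the background mark on all arrays but 1 of CR43464. With slide as a block none of the 35 passed (6 at an unadjusted p below 0.05; 0.0533% of everything tested passed), and CR43470, CR44029, CR43257 and CR43767 stood at -1.36, -1.65, 0.75 and -0.40. Slide 1 held no knockout array, slide 2 no control ethanol or knockout rapamycin array and slide 3 no control array, so no slide gives a difference between genotypes on 1 food within itself. CR43470 passed in 22 of 23 alternatives and CR44029 in 16 of 23. CR43257 passed in 7 of 24, with adjusted p from 0.0277 to 0.737, and was lost without any control array, knockout ethanol array 2 or 3 or knockout rapamycin array 2 or 3. CR43767 passed in 2 of 24, from 0.0275 to 0.714, and of the 12 arrays only leaving out control ethanol array 1 kept it. CR44029 was lost without control ethanol array 2 or 3 or knockout ethanol array 3 (0.0686 to 0.108).

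Knockout against control on rapamycin food compares the genotypes under the drug. Of the antisense RNAs 6 of 35 passed, 4 higher and 2 lower in the knockout, a share of 17.1%, where 27.9% of everything tested passed, 12.9% higher and 14.9% lower. CR44069 had the largest difference among them, 1.45 ± 0.19, 2.74-fold (adjusted p = 0.000402). CR43425 was well above background on the 3 knockout rapamycin arrays alone, so it met the rule through the group where it is high and its call lends the count no support. It was at least 1.17-fold higher there, with a fitted difference of 1.07 ± 0.27 (adjusted p = 0.0142). Under normexp the difference was 0.08 and did not pass (adjusted p = 0.464, within 0.0087 to 0.464 over its alternatives). CR43767 was higher by 0.68 ± 0.07, 1.60-fold (adjusted p = 0.000142), and CR44054 by 0.62 ± 0.14, 1.53-fold (adjusted p = 0.0081).

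The 2 lower in the knockout were CR44031 and CR44114. CR44031 read -3.86, -3.96 and -4.22 in the knockout against -3.34, -3.38 and -3.12 in control larvae, a fall of 0.74 ± 0.11, 1.67-fold (adjusted p = 0.00108), and on ethanol its knockout arrays read -3.91, -4.08 and -3.83. CR44114 was lower by a fall of 0.35 ± 0.09, 1.28-fold (adjusted p = 0.0155), and was lost without control rapamycin array 3 or knockout rapamycin array 1, at adjusted p of 0.0555 and 0.0502 within a range of 0.00758 to 0.643. The genotypes did not overlap for 9 of 35, against 44.9% of everything tested, and CR43425 among the 9 lends that count no support either.

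Without the raised roX2 arrays CR44069 (1.42), CR43767 (0.62), CR44054 (0.75) and CR44031 (-0.86) passed, CR43425 (0.56) and CR44114 (-0.28) did not, and CR32252 passed in addition at -1.49 ± 0.30. With slide as a block CR44069 (1.60) and CR43767 (0.70) passed, and CR43425 (1.02), CR44054 (0.64), CR44031 (-0.93) and CR44114 (-0.21) did not. That setting links the genotypes through the knockout ethanol arrays of slides 2 and 3, with array 3 alone on slide 3. With median centring 1 was higher and 1 lower, and 8.88% of everything tested passed. The median over everything stood at -0.13, and the higher share of all calls was 23.1% in place of 46.4%.

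The relation to roX2 was described without a test, since roX2 parts the arrays into separate clusters. Control rapamycin array 3, the only control array with raised roX2, was the highest of its group for 19 of 35 antisense RNAs, 54.3%, against 37.3% of everything tested. Knockout rapamycin arrays 1 and 2 both lay above array 3 for 24, 68.6% against 40.3%. Both orders held for 14 of the 35, where 21.0% of everything tested showed them, and with knockout array 1 above array 2 as well, which is the order of roX2, for 12, 34.3% against 14.8%. The median gap of control array 3 over the mean of arrays 1 and 2 was 0.13 for the antisense RNAs and 0.01 for everything tested, and that of knockout array 1 over array 3 was 0.36 and -0.03. Everything tested is brighter than the antisense RNAs. Over all probes, tested or not, the median level was -3.29 on control rapamycin array 3, and -3.70 and -3.68 on arrays 1 and 2. On knockout rapamycin arrays 1, 2 and 3 it was -3.07, -3.44 and -3.75. The part of this rise in the orders and gaps was not tested.

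Large gaps were found in a few. Control array 3 lay at least 1 log2 unit above the mean of arrays 1 and 2 for 3 antisense RNAs, 8.57% against 5.37% of everything tested. Knockout array 1 lay at least 1 above array 3 for 7, 20.0% against 6.76%, and knockout array 2 did so for 4, 11.4% against 4.68%. In whole larvae, fewer cells of a type and less RNA per cell cannot be told apart, and the part of the raised roX RNAs, or of the higher share of spots above background on those arrays, in these gaps was not tested.

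CR43159, which overlaps yellow-k of the yellow family, had the largest gap in control larvae, 1.43. On the ethanol arrays it read -6.31, -5.97 and -6.13 in control and -6.56, -6.03 and -7.14 in knockout larvae. On the rapamycin arrays it read -5.98, -5.99 and -4.55 in control and -3.76, -5.23 and -6.57 in knockout larvae, so the 3 highest of the 12 were the 3 arrays with raised roX2. A dimmer second probe of the gene, well above background on 8 arrays, read -7.82, -6.66 and -5.06, and -4.52, -5.92 and -6.72 on the rapamycin arrays, in the same order, but also -4.77 on control ethanol array 3 and -5.03 on knockout ethanol array 2.

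CR32252, inside CG43367, read -5.94, -5.27 and -5.56 and -5.26, -5.36 and -5.78 on the ethanol arrays of control and knockout larvae. It read -4.62, -4.59 and -3.66 on control rapamycin arrays and -2.71, -4.68 and -6.09 on knockout rapamycin arrays. All control rapamycin arrays lay above all ethanol arrays, while the knockout rapamycin arrays spanned 3.38 log2 units and array 3 was the lowest of the 12. Its rapamycin differences of 1.30 ± 0.68 in control and 0.97 ± 0.68 in knockout larvae did not pass (adjusted p = 0.157 and 0.353).

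CR31144, inside RpL3, a gene of the large ribosomal subunit that also hosts small nucleolar RNAs, read -3.73, -3.81 and -3.68 and -3.58, -3.92 and -4.00 on the ethanol arrays. On the rapamycin arrays it read -3.88, -3.63 and -2.66 in control and -1.73, -3.34 and -4.35 in knockout larvae. Here too the 3 raised roX2 arrays were the 3 highest, and knockout rapamycin array 3 was the lowest of all. CR43865, inside the potassium channel gene Shawl, read -5.09, -5.40 and -5.94 and -5.23, -5.42 and -5.40 on ethanol, then -5.74, -5.74 and -4.60 and -4.43, -5.46 and -5.55 on rapamycin. It was high on 2 of the raised arrays, while knockout rapamycin array 2 lay among the others.

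**Figure D4:**
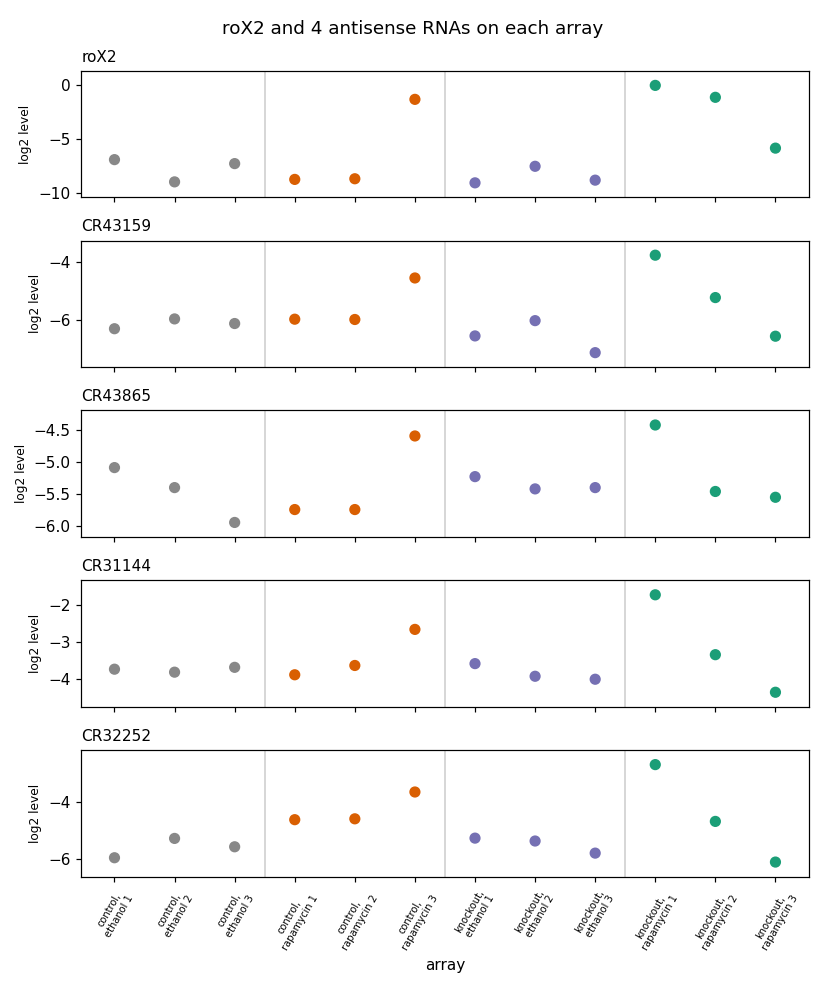
The top panel gives the log2 level of roX2 and the others that of the 4 antisense RNAs with the largest gap of control rapamycin array 3 over arrays 1 and 2, for each of the 12 arrays; each panel has its own scale. CR43159 and CR31144 are highest on the 3 arrays where roX2 lies between -1.29 and 0.01.

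The next gaps were smaller. CR44064, which overlaps CG7420, read -6.02, -6.02 and -6.28, then -6.27, -6.96 and -5.97, then -7.63, -6.94 and -6.82, then -6.35, -6.76 and -7.30, in the order control ethanol, control rapamycin, knockout ethanol and knockout rapamycin. CR43463, inside Pgant35A, which encodes an enzyme of O-linked glycosylation, read -3.97, -2.62 and -3.22, then -3.09, -2.96 and -2.60, then -4.87, -3.86 and -4.95, then -2.59, -3.65 and -3.98. In both, array 3 was the highest of the control rapamycin arrays, and knockout rapamycin array 1 lay above array 2 and array 2 above array 3, but in each a control ethanol array lay above at least 1 array with raised roX2. CR44228, with the levels given above, had a gap of 0.45 and CR43964 one of 0.43.

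Others did not show it in control larvae. CR43868, inside CG10638 and picked out after its values were seen, was lowest in its group on control rapamycin array 3, at -6.42 against -4.61 and -5.25. CR43767 hardly varied within any group, with a gap of -0.02 in control larvae and 0.07 between knockout arrays 1 and 3. CR43464 and CR44029 had gaps of -0.02 and 0.02 in control larvae, while in knockout larvae arrays 1 and 2 lay above array 3 by 0.29 and 0.23 for CR43464 and by 0.39 and 0.70 for CR44029.

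The 11 antisense RNAs not given array by array were CR43468, Eig63F-2, CR44119, CR43889, CR43864, CR31429, CR43868, CR43957, CR42547, CR43609 and CR43429. They overlap, among others, the ecdysone-induced gene Eip63F-1, the chromatin remodeller gene Mi-2, the Notch pathway ubiquitin ligase gene neur, the Hedgehog pathway transcription factor gene ci and the ionotropic receptor gene Ir21a. Their levels lay between -7.91 and -3.01, each ranging over 0.54 to 2.35 log2 units across the 12 arrays, and none passed the test in any comparison. For CR43864 a second probe, well above background on 5 arrays, gave a control rapamycin difference below 0 where the brighter one gave 0.45, so its direction depends on the probe.

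More antisense genes were detected on the arrays with raised roX2. Of the 63 with a matched probe, 43, 48 and 40 were well above background on control rapamycin array 3 and knockout rapamycin arrays 1 and 2, and 29 to 36 on each of the other 9. The 28 genes that failed the rule gave 11, 13 and 6 of these, against 0 to 6 elsewhere. Over all spots the share above background on those arrays was 82.7%, 81.8% and 79.3%, against 72.5% to 77.0% elsewhere, and its part in these counts was not tested. Just outside the rule stood 9 genes with 2 of 3 arrays above background in their best group, while 11 had 1 and 8 had none.

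**Figure D5:**
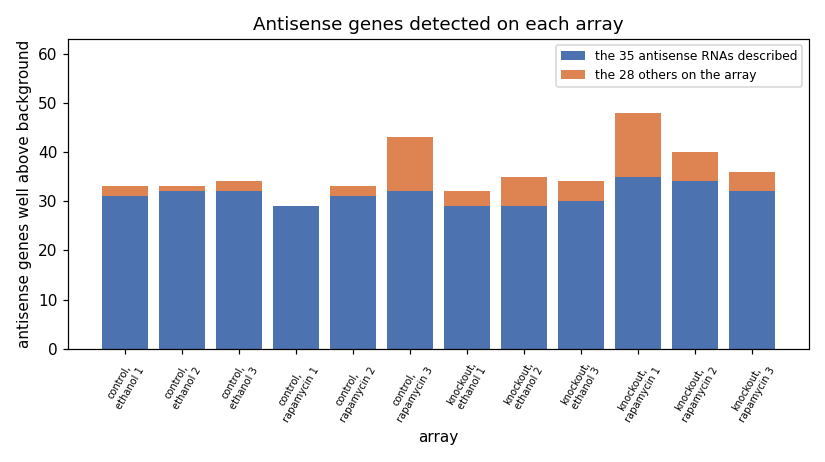
Bars give the number of the 63 antisense genes well above background on each array, split into the 35 described (blue) and the 28 that failed the background rule (orange). Control rapamycin array 3 and knockout rapamycin arrays 1 and 2 reach 43, 48 and 40, and the other 9 arrays 29 to 36.

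The lists of pathway genes could hardly be read on this array. None of the 10 RNA interference and double-stranded RNA genes listed had a named probe, and of 16 nuclear RNA decay genes 1 did, Rrp42, an exosome core subunit. Rrp42 fell by 0.52 ± 0.12 on rapamycin in control larvae (adjusted p = 0.00538) and by 0.74 ± 0.12 in knockout larvae (adjusted p = 0.00443), and its difference between genotypes, -0.21 ± 0.17, did not pass. Of 7 dosage compensation genes only roX1 and roX2 had a named probe, and neither passed in any of the 5 comparisons.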

How the data were processed

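The authors deposited 1 scanner file per array. Per the file headers it lists the intensity of each spot, and the submitters' processing notes name Agilent Feature Extraction 10.7. Labelling used 0.5 µg of RNA per the labels' protocols. Levels came from the processed signal, from which the scanner software had already removed background. A value table that the authors also deposited holds another intensity, whose making is not given in the sources used here; it followed the log2 median spot signal and had column medians of 143.6 to 156.5, and served as an alternative.

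Each array had 43602 spots other than controls, 72.5% to 82.7% of them well above background and 0 saturated; precision is set by having 3 arrays a group. Outlier spots were left out, spots of a probe averaged on the log2 scale, and each array centred on its 75th percentile. A probe was well above background on an array if all its spots were. Of 32162 probes, 494 matched 1 symbol in the reference table, 3 several and 31665 none; 73 probes were antisense, 71 by accession and 2 by clone. The brightest probe stood for a gene or unnamed target, and 18757 were tested.

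Tests used limma 3.58.1 (R 4.3.3) in 1 model of 4 groups, two-sided, with Benjamini-Hochberg adjustment over all tested and a threshold of 0.05. The steps were tested on simulated data. Named RNAs are those past the threshold (up to 8 per comparison and direction), the 8 with the largest gap of control rapamycin array 3, and the 3 brightest and dimmest; the others are given by range, and any further one is said to be chosen on its values. Members, lists and tests were chosen with earlier results of these data known. Normexp (offset 50) used median spot signals, the means not being among the columns, and left out spots marked as outliers. Other alternatives were centring, normalization, background filter, probe choice, slide or replicate block, variance trend, roX2 as a covariate or its raised arrays left out, and each array left out. Probe and RNA sequences were not used here.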

Additional observations from a re-analysis of the deposited data

Results flagged for a closer look

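The rapamycin effect differed between genotypes for 5 of 35 antisense RNAs, by the test of the difference itself (limma, adjusted p below 0.05). That is a share of 14.3%, near the 14.6% of everything tested. The differences, knockout minus control on the log2 scale, were 1.72 for CR44029, 1.15 for CR44069, 0.98 for CR44054, 0.96 for CR43470 and 0.96 for CR43767. None of the 5 passed with median centring, with quantile normalization or in the deposited value table. CR44029 passed in 9 of 23 alternatives. Its knockout ethanol arrays were not well above background, so the size of its difference is not fixed. CR43767 fell in both genotypes and by less in the knockout, and the other 4 fell or did not pass in control larvae.

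Signal was found in 6 antisense genes that failed the background rule and so entered no comparison. They were chosen after their values were seen, as those at least 1 log2 unit above every ethanol array and well above background on at least 2 rapamycin arrays. Their highest levels were -2.82 for CR43299, -3.09 for CR43476, -3.26 for CR42738, -4.56 for CR42743, -5.10 for CR31845 and -5.42 for CR43872. Their highest ethanol levels were -8.20, -6.91, -5.60, -8.92, -6.43 and -8.12 in the same order. Every array that met this condition was one with raised roX2.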

How the results depend on the processing

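No call on a named antisense RNA changed sign in any alternative. Of the values for single RNAs under alternatives, 530 stayed past the threshold and 192 did not. Counts of antisense RNAs past the threshold are given in the order rapamycin in control larvae (10), rapamycin in knockout larvae (5), their difference (5), knockout on ethanol (4) and knockout on rapamycin (6). Median centring gave 0 for the difference (9 at an unadjusted p below 0.05), 2 for knockout on ethanol and 2 on rapamycin. Over everything tested 1.75%, 0.64% and 8.88% passed there. Quantile normalization gave 1, 2 and 3 for these, and the authors' deposited values gave 0 (7 unadjusted), 2 and 2, with 2 for rapamycin in knockout larvae. Normexp gave 6, 3 and 3 for both rapamycin effects and their difference, where 39.3%, 13.2% and 13.2% of everything tested passed. Slide as a block gave 6, 3, 2, 0 and 2, where 24.9%, 1.4%, 3.3%, 0.0533% and 4.23% of everything tested passed. Within slide 1 rapamycin in control larvae gave 5, and within slide 3 rapamycin in knockout larvae gave 0. Without the raised roX2 arrays rapamycin in knockout larvae gave 0 (9 unadjusted), the difference 2 and knockout on ethanol 1, and with roX2 as a covariate rapamycin in knockout larvae gave 1 and knockout on ethanol 2. Requiring all 12 arrays above background gave 3 for rapamycin in knockout larvae and 2 for knockout on ethanol, among 24 antisense RNAs. Over everything tested 18.7% and 8.61% passed there. No filter gave 2 for knockout on ethanol, where 2.04% of everything tested passed. Leaving out 1 array at a time gave 7 to 12, 3 to 7, 4 to 7, 1 to 7 and 5 to 8. The labels do not say whether the replicate numbers pair the samples. Deviations of same-numbered arrays from their group means correlated between -0.82 and 0.18. That cannot settle it, since the arrays with raised roX2 stand apart and carry different numbers in the 2 genotypes. A replicate block gave 9, 4, 5, 2 and 7, where 38.9%, 9.43%, 10.4%, 1.5% and 23.7% of everything tested passed. The cause of these changes was not tested. Dim signal limits what could be seen: 5 of the 35 RNAs were not well above background on any array of at least 1 group, where only bounds hold.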
